A study of Mus musculus with 20 samples.

Results

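The sodium-proton exchanger NHE1 works with proteins that bind it and beside other carriers that move acid and base across the cell membrane. Expression of 6 such genes was followed here in brain regions of mice labelled as carrying an NHE1 null mutation. They are Chp1, Tesc and Slc9a3r1, which encode binding or scaffold proteins, and Slc4a2, Slc4a3 and Slc16a3, which encode transporters. The genes were taken by symbol, with every probe that carried one of the symbols, whatever its values. This gave 7 probes of the 15245 on the array, and 6 genes of the 7117 that had a probe with a single gene symbol. All 6 genes entered the test across 8319 features. Slc4a2 had a pair of probes, of which 1 had values on too few arrays to be tested.

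Each of 20 two-colour arrays set amplified RNA from a brain region of an NHE1 null mutant mouse against wild-type RNA, pooled, of that region. Brain stem-diencephalon, cerebellum, cortex and hippocampus made up the 4 regions, and each had 5 arrays, 3 with the null RNA in channel 1 and 2 with the channels swapped. Averaging arrays of a region that shared a number left 13 replicates, 4 in cortex, where a swapped array had no number, and 3 in each of the others. That unnumbered array was kept as a replicate of its own, though it may repeat the RNA of a numbered array. The labels gave no allele, strain, age or sex and did not state which numbers stand for separate animals, so p-values measure only how far these samples spread, and that spread may be technical.

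NHE1 sits in the plasma membrane of nearly all cells and uses the inward sodium gradient to expel protons. Calcineurin B homologous proteins bind its cytoplasmic tail, and CHP1 is needed for its full activity. In neurons and glia, chloride-bicarbonate exchangers of the SLC4 family load the cell with acid, the opposite of what NHE1 does, while monocarboxylate transporters carry lactate together with a proton. Mice without NHE1 are known for ataxia and epileptic seizures.

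Values are log2 ratios of null over wild type, so that 0 means equal signal, each array being centred on its median. An array had values for 6793 to 13963 probes. The order of the channels and the log base were not stated. Null over wild type is therefore the likely direction only, every sign would turn if the channel order were the opposite, and each fold change assumes base 2. The one control was the wild-type pool, whose own spread is not part of any error given. In bulk RNA, fewer cells of a type and less RNA per cell cannot be told apart.

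Several arrays stood apart. The swapped arrays of cerebellum 1 and brain stem-diencephalon 2 held nearly the same values (r = 0.9952 across 6748 probes), while the next highest of the 190 array pairs reached 0.7432. The pair is called the repeated array here. Arrays of opposite orientation within a region, compared before any sign was turned, had a median r of -0.285 over 16 pairs, but of 0.122 over the 8 pairs that included a channel 1 array of number 1. The Y-linked gene Eif2s3y followed the array number. Its null over wild type ratio was -1.36 to -0.44 on the 6 arrays of number 1 other than the repeated array, in either orientation. It was 0.93 to 1.64 on the arrays of numbers 2 and 3 with a value, again without the repeated array, and 1.61 on the unnumbered cortex array. The repeated array read 1.71 under both labels, unlike every other array of number 1. The part of sex in the values below was not tested, and the 3 calls are also given without the arrays of number 1.

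Across the mean of the 4 regions, Slc9a3r1 and Tesc fell in the null mutants and Chp1 rose, by 1.27-fold, 1.26-fold and 1.19-fold. The transporters Slc4a2, Slc4a3 and Slc16a3 had ratios below 0 that did not pass the test. Thus 3 of 6 genes passed at an adjusted p under 0.05, where 26.1% of all 8319 features did. The 6 genes were chosen with earlier results of these data known, so the counts beside these shares are no test of the group. By direction, 2 of 6 fell against 12.9% of all features, and 1 of 6 rose against 13.2%. The median ratio of the 6 genes was -0.14 and that of all features 0.011, and 5 of 6 genes lay below 0, as did 47.5% of all features. Single regions gave few calls. In cortex 1 of 6 genes passed (4.12% of all features), and by limma's moderated test none passed in hippocampus (0.661%), cerebellum (3.07%) or brain stem-diencephalon (0.361%). At an unadjusted p under 0.05 there were 3 of 6 genes in cortex (27.7% of all features), 1 in hippocampus (Slc9a3r1; 14.1%), 1 in cerebellum (Tesc; 22.5%) and 2 in brain stem-diencephalon (Chp1 and Tesc; 13.5%).

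The 3 calls held without the repeated array, where 16.9% of all features passed in the mean. They also held without the arrays of number 1, where 33.8% of all features passed, and Slc4a2 with them. Without the repeated array the mean was -0.32 for Slc9a3r1 (adjusted p = 0.0235), -0.42 for Tesc (adjusted p = 0.0224) and 0.25 for Chp1 (adjusted p = 0.0326). Without any array of number 1 it was -0.40 for Slc9a3r1 (adjusted p = 0.00178), -0.43 for Tesc (adjusted p = 0.00339) and 0.33 for Chp1 (adjusted p = 0.00749). When the channel 1 arrays of number 1 alone were left out, 5 of the 6 genes passed in the mean, where 38.6% of all features did, and 4 of 6 in cortex, where 18.7% did. Tesc in cortex was then at -0.84 (adjusted p = 0.0022) and Slc9a3r1 at -0.61 (adjusted p = 0.00481).

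The 3 genes that passed differ among themselves in the letters just before their transcription start. RefSeq promoter windows of GRCm38.p6 were found for 6 of 6 genes. Those of the 3 genes that passed are given below, each as the 250 bases before the start, on the plus strand, which is the strand of the gene. They lie at chr11:115163091-115163340 for Slc9a3r1, chr5:118027493-118027742 for Tesc and chr2:119547457-119547706 for Chp1. Capitals mark matches on either strand to the GC box GGGCGG, read as CCGCCC on the other strand, and to the CCAAT box CCAAT, read as ATTGG on the other strand.
Slc9a3r1: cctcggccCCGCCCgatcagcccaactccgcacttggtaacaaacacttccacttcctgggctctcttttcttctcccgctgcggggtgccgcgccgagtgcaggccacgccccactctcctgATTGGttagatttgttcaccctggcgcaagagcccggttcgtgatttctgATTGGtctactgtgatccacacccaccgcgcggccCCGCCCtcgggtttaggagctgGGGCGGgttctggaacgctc
Tesc: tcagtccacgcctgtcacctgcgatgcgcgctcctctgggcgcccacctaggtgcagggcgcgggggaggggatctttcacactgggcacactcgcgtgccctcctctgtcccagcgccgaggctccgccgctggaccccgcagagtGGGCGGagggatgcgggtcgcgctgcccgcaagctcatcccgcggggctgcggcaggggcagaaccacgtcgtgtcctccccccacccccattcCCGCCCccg
Chp1: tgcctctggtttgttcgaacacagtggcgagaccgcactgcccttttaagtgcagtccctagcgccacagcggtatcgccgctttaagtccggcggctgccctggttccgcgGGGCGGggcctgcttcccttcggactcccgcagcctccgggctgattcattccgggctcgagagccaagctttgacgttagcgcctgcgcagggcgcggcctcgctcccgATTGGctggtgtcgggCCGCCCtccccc
The Slc9a3r1 window held 3 GC boxes and 2 CCAAT boxes. Tesc held 2 GC boxes and no CCAAT box, and Chp1 held 2 GC boxes and 1 CCAAT box. Among all 32851 windows of the same length, 32.7% held a GC box and 33.8% a CCAAT box. The GC content was 62.8% for Slc9a3r1, 73.2% for Tesc and 67.2% for Chp1, against a median of 52.4% over all windows. The genes that did not pass were alike, with 69.2% and 61.2% for Slc4a2, 70.0% for Slc4a3 and 73.6% for Slc16a3. Slc4a3 held 2 GC boxes, Slc16a3 held 1, and neither window of Slc4a2 held any. No window of these genes held a CCAAT box. Matches of this kind describe the letters of the window and are not binding sites shown by these data.

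**Figure D1:**
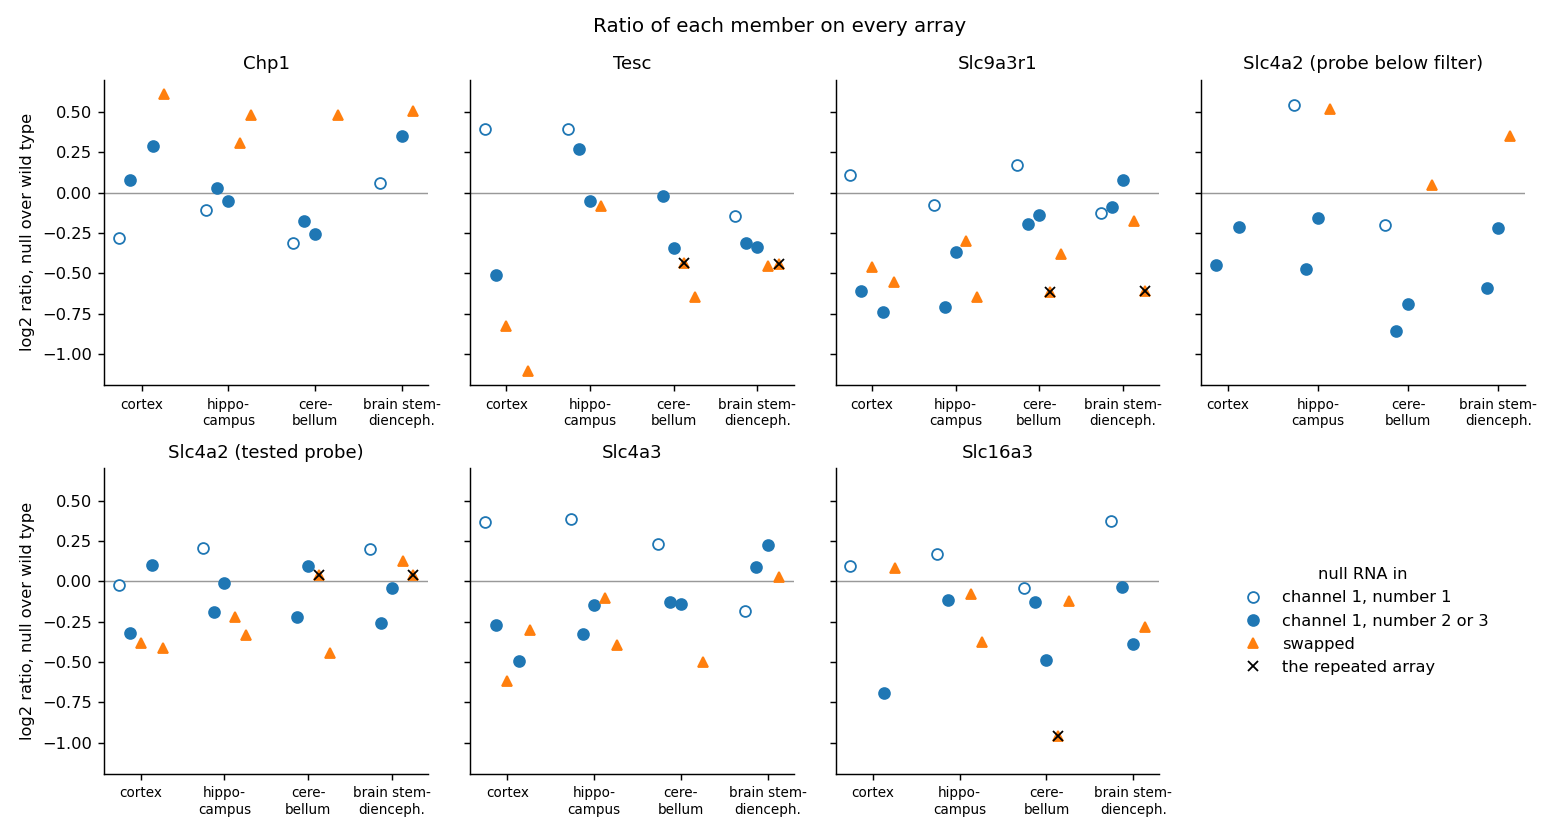
Log2 ratio of null over wild type (vertical axis) for each probe of the 6 genes on every array, grouped by region along the horizontal axis. Open circles are channel 1 arrays of number 1, filled circles channel 1 arrays of numbers 2 and 3, triangles swapped arrays and crosses the repeated array. The 8 swapped arrays of Slc9a3r1 lie below 0, and the 5 of Chp1 with a value lie above 0.

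Slc9a3r1 encodes NHERF1, a PDZ scaffold that ties membrane transporters, best known for the related exchanger NHE3, to ezrin and the actin cytoskeleton. Its probe had a value on 20 of 20 arrays. In cortex the ratios were 0.11, -0.61 and -0.74 on the channel 1 arrays of numbers 1 to 3, and -0.46 and -0.55 on the swapped arrays. In hippocampus they were -0.077, -0.71 and -0.37 on the channel 1 arrays, and -0.30 and -0.65 on the swapped ones. Signal was thus lower in the null RNA on 9 of the 10 arrays of these regions, cortex array 1 being the exception. In cerebellum the channel 1 arrays gave 0.17, -0.20 and -0.14, and the swapped arrays -0.61, which is the repeated array, and -0.38. In brain stem-diencephalon the channel 1 arrays gave -0.13, -0.087 and 0.078, and the swapped arrays -0.18 and, for the repeated array, -0.61. The ranges of all 4 regions overlapped.

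In the fit, Slc9a3r1 fell by 0.35 ± 0.07 in the mean of the regions (SE, n = 13 replicates), 1.27-fold, with an adjusted p of 0.00475 and 11 of 13 replicates below 0. Its 95% interval was -0.50 to -0.19. By region the ratio was -0.47 ± 0.12 in cortex (n = 4, adjusted p = 0.0459), -0.46 ± 0.14 in hippocampus (adjusted p = 0.157), -0.27 ± 0.14 in cerebellum (adjusted p = 0.276) and -0.19 ± 0.14 in brain stem-diencephalon (adjusted p = 0.574). The decrease in the mean passed in all 27 alternatives tried, with ratios of -0.47 to -0.22 and adjusted p of 0.000237 to 0.033. The cortex call passed in 10 of 28 alternatives and in 2 of the 13 fits that left out a replicate, those of other regions included: without the unnumbered cortex array its adjusted p was 0.413, without replicate 2 it was 0.119, and without replicate 3 it was 0.148, with a ratio of -0.33.

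Tesc encodes tescalcin, a calcium-binding relative of CHP1 that also binds the NHE1 tail. It had a value on 17 of 20 arrays, and 14 of them lay below 0. In cortex the channel 1 arrays of numbers 1 and 2 gave 0.40 and -0.51, and the swapped arrays -0.82 and -1.11. In brain stem-diencephalon the channel 1 arrays gave -0.14, -0.31 and -0.33 and the swapped arrays -0.46 and, for the repeated array, -0.44. All 5 arrays of brain stem-diencephalon thus lay below 0 and close together, whereas cortex spanned both signs and held the lowest of the ratios. In hippocampus the channel 1 arrays gave 0.40, 0.27 and -0.050, and the swapped array with a value gave -0.085. In cerebellum the channel 1 arrays of numbers 2 and 3 gave -0.018 and -0.34, and the swapped arrays -0.44 for the repeated array and -0.64. The ranges of hippocampus and brain stem-diencephalon did not overlap, though their fitted difference (0.37 ± 0.23, SE) did not pass the test. Those of all other pairs of regions overlapped. Apart from cortex array 1 the ratios above 0 were both in hippocampus.

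Tesc fell by 0.33 ± 0.09 in the mean of the regions (SE, n = 12), 1.26-fold, with an adjusted p of 0.0139, 9 of 12 replicates below 0 and a 95% interval of -0.52 to -0.15. No single region passed the test: the ratio was -0.46 ± 0.16 in cortex (adjusted p = 0.094), -0.07 ± 0.18 in hippocampus (adjusted p = 0.89), -0.37 ± 0.16 in cerebellum (adjusted p = 0.196) and -0.44 ± 0.17 in brain stem-diencephalon (adjusted p = 0.279). In hippocampus 2 of 3 replicates lay above 0, and without the orientation term its ratio was 0.13. The call in the mean held in 23 of 26 alternatives. It ended without the orientation term, at -0.26 with an adjusted p of 0.0521. The call also ended without the unnumbered cortex array, at -0.24 with an adjusted p of 0.108. On the channel 1 arrays alone the mean was -0.07 with an adjusted p of 0.523.

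Chp1 encodes CHP1, the calcineurin B homologous protein that keeps NHE1 active at the cell surface. It had a value on 16 of 20 arrays. In cortex the channel 1 arrays of numbers 1 to 3 gave -0.28, 0.081 and 0.29, and the unnumbered swapped array gave 0.61. In hippocampus the channel 1 arrays gave -0.11, 0.031 and -0.050 and the swapped arrays 0.31 and 0.48. The swapped arrays were the highest in both regions. In cerebellum the channel 1 arrays gave -0.31, -0.18 and -0.25 and the swapped array of number 2 gave 0.48. In brain stem-diencephalon the channel 1 arrays of numbers 1 and 3 gave 0.059 and 0.35 and the swapped array of number 1 gave 0.51. The repeated array had no value for Chp1.

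Chp1 rose by 0.25 ± 0.07 in the mean of the regions (SE, n = 12), 1.19-fold, with an adjusted p of 0.0233, 8 of 12 replicates above 0 and a 95% interval of 0.09 to 0.40. By region the ratio was 0.31 ± 0.10 in cortex (adjusted p = 0.0883), 0.19 ± 0.11 in hippocampus (adjusted p = 0.477), 0.04 ± 0.12 in cerebellum (adjusted p = 0.88) and 0.45 ± 0.14 in brain stem-diencephalon (n = 2, adjusted p = 0.188). The direction rested on the swapped arrays: their fit alone gave 0.50 with an adjusted p of 0.0187, whereas the channel 1 arrays alone gave -0.014 with an adjusted p of 0.873. In cerebellum 2 of 3 replicates lay below 0, and without the orientation term its ratio was -0.14. The call held in 21 of 26 alternatives. It also ended without the orientation term (0.11, adjusted p = 0.256), without the unnumbered cortex array (0.22, adjusted p = 0.216), without hippocampus replicate 2 (0.24, adjusted p = 0.0628) and without cerebellum replicate 2 (0.22, adjusted p = 0.0944).

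**Figure D2:**
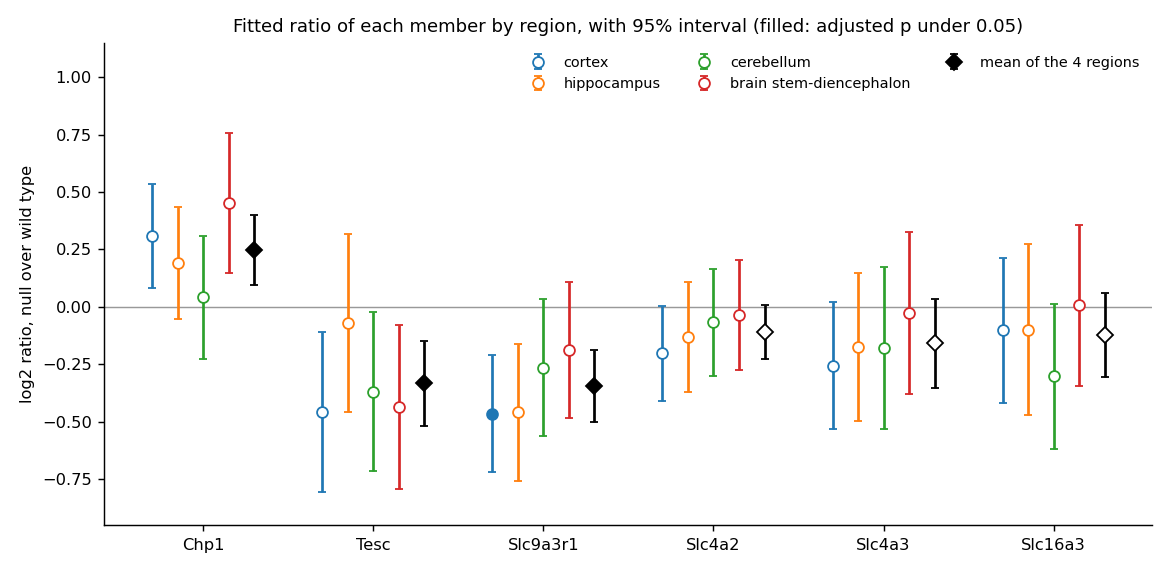
Fitted log2 ratio of null over wild type (vertical axis) for the 6 genes, by region and for the mean of the 4 regions, with 95% intervals; filled symbols have an adjusted p under 0.05. The mean was 0.25 for Chp1, -0.33 for Tesc and -0.35 for Slc9a3r1, and cortex for Slc9a3r1 (-0.47) is the single filled region.

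Slc4a2 encodes the anion exchanger AE2, which trades chloride for bicarbonate in many epithelia and in the choroid plexus. On its tested probe the ratios were -0.020, -0.32 and 0.099 on the channel 1 arrays of cortex and -0.38 and -0.41 on the swapped ones. Outside cortex the 14 arrays with a value ran from -0.44 to 0.21, with both signs in every region. Slc4a2 had a mean ratio of -0.11 ± 0.06 (SE, n = 13, adjusted p = 0.157), with 9 of 13 replicates below 0. The region ratios were -0.20 in cortex, -0.13 in hippocampus, -0.04 in brain stem-diencephalon and -0.07 in cerebellum, and none passed. Of 27 alternatives 1 passed in the mean: without any array of number 1 the ratio was -0.23 (adjusted p = 0.0117). It was -0.11 without the channel 1 arrays of number 1 alone (adjusted p = 0.119) and -0.18 without the repeated array (adjusted p = 0.0945).

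The other Slc4a2 probe had a value on 13 arrays and did not enter the test. It read -0.45 ± 0.25 on the 8 channel 1 arrays of numbers 2 and 3 (SD), all below 0, and 0.30 ± 0.24 on the 3 swapped arrays (SD), all above 0. The tested probe gave -0.11 ± 0.16 and -0.20 ± 0.23 (SD, n = 8 each) on the same kinds of array, with the repeated array under both labels, so the means of the probes differed in sign on swapped arrays.

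Ttr, a transcript of the choroid plexus, where AE2 is also found, had a mean ratio of -0.31 (adjusted p = 0.0422), with -1.05 in cerebellum, -0.70 in cortex, -0.19 in brain stem-diencephalon and 0.68 in hippocampus. It was the single one of 8 choroid plexus markers that could be tested. The part of choroid plexus in the Slc4a2 values was not tested.

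Slc4a3 encodes AE3, the anion exchanger of neurons and heart. It had a value on 18 of 20 arrays. In cortex the channel 1 arrays gave 0.37, -0.27 and -0.49 and the swapped arrays -0.62 and -0.30. In brain stem-diencephalon the channel 1 arrays gave -0.18, 0.088 and 0.23 and the swapped array with a value 0.030. The cortex arrays other than number 1 were thus lower than all of those in brain stem-diencephalon. Slc4a3 had a mean ratio of -0.16 ± 0.09 (SE, n = 13, adjusted p = 0.201), with 8 of 13 replicates below 0, and region ratios of -0.26 in cortex, -0.18 in hippocampus, -0.03 in brain stem-diencephalon and -0.18 in cerebellum. Of 27 alternatives 1 passed in the mean: without the channel 1 arrays of number 1 the ratio was -0.18 (adjusted p = 0.0129). Without any array of number 1 it was also -0.18 (adjusted p = 0.0572).

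Slc16a3 encodes the monocarboxylate transporter MCT4, which exports lactate with a proton and in brain is found mainly in astrocytes. It had a value on 16 arrays, from -0.96 on the repeated array, under its cerebellum label, to 0.38 on the channel 1 array of brain stem-diencephalon 1. In cerebellum the channel 1 arrays gave -0.043, -0.13 and -0.48 and the swapped arrays -0.96 and -0.12, so all 5 lay below 0. The other regions held values on both sides of 0. Slc16a3 had a mean ratio of -0.12 ± 0.08 (SE, n = 11, adjusted p = 0.295), with 7 of 11 replicates below 0 and region ratios of -0.10 in cortex, -0.10 in hippocampus, 0.01 in brain stem-diencephalon and -0.30 in cerebellum. Of 26 alternatives 1 passed in the mean: without the channel 1 arrays of number 1 the ratio was -0.31 (adjusted p = 0.0205). It was -0.12 without any array of number 1 (adjusted p = 0.253) and -0.072 without the repeated array (adjusted p = 0.613), when cerebellum was at -0.088.

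The question of whether the null mutation went with a different change from region to region was put by comparing the 4 region ratios of each gene. None of the 6 genes passed the F test of equality (adjusted p = 0.999 for each), and 0 of 8319 features did, with 351 at an unadjusted p under 0.05 (4.22%). None of the 36 pairwise differences of the 6 genes passed either. Over all features 0.012% passed in cortex minus hippocampus and 0.0481% in cortex minus cerebellum, with 0 in the other four pairs. Of the 36 differences, 1 had an unadjusted p under 0.05, in a pair where 2.86% of all features had one. That was Chp1 in cerebellum minus brain stem-diencephalon, at -0.41 ± 0.17 (SE, 95% interval -0.79 to -0.03, adjusted p = 0.999 by limma). The order of the regions in the 6 genes is therefore not resolved. The intervals stayed wide: for Slc9a3r1 in cortex minus brain stem-diencephalon the difference was -0.28 (-0.66 to 0.10), and for Tesc in cortex minus hippocampus it was -0.39 (-0.91 to 0.13).

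The orientation of an array moved with several of these values, counted here with the repeated array under both labels. Chp1 averaged 0.48 ± 0.11 on the 5 swapped arrays with a value and -0.03 ± 0.22 on the 11 channel 1 arrays (SD). The lowest swapped ratio, 0.31, lay above 10 of those 11, so the orientations overlapped by 1 array. Tesc averaged -0.57 ± 0.33 on 7 swapped arrays, all below 0, and -0.06 ± 0.33 on 10 channel 1 arrays (SD). Slc9a3r1 averaged -0.47 ± 0.17 on 8 swapped arrays, all below 0, and -0.22 ± 0.31 on 12 channel 1 arrays, 9 of them below 0 (SD). On the channel 1 arrays, number 1 differed from the rest: Slc9a3r1 averaged 0.02 ± 0.14 on those of number 1 (SD, n = 4) and -0.35 ± 0.31 on those of numbers 2 and 3 (SD, n = 8). The fitted orientation term was -0.27 ± 0.09 for Chp1, 0.29 ± 0.12 for Tesc and 0.15 ± 0.11 for Slc9a3r1 (SE). The term was larger in size than that of 92% of all features for Chp1, of 94.6% for Tesc and of 68% for Slc9a3r1. The cause of these differences was not tested.

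**Figure D3:**
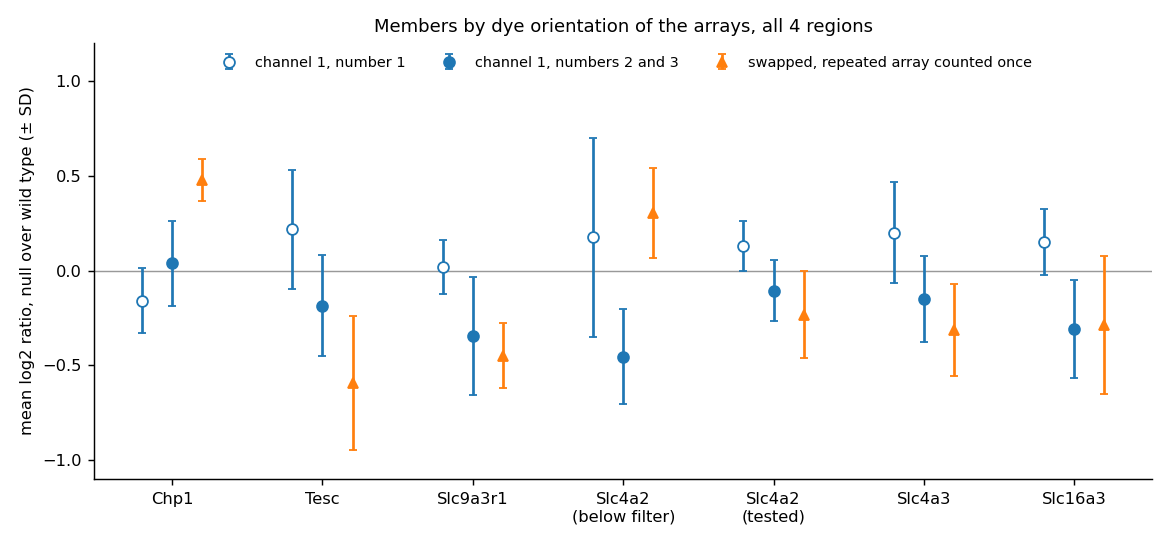
Mean log2 ratio of null over wild type ± SD (vertical axis) of each probe of the 6 genes on channel 1 arrays of number 1, channel 1 arrays of numbers 2 and 3, and swapped arrays with the repeated array counted once. Chp1 averaged 0.48 on swapped arrays, above both kinds of channel 1 array, and Tesc averaged -0.59 there, below both.

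Other proteins that bind, anchor or phosphorylate NHE1 or belong to the scaffold were taken as a list of 30 genes, of which 20 had a probe and 19 were tested. In the mean of the regions 4 of 19 rose and 2 of 19 fell, against 13.2% and 12.9% of all features, and the list median was -0.025. The genes that rose were the calcineurin catalytic subunits Ppp3cb (0.48 ± 0.08, adjusted p = 0.00184, 13 of 13 replicates above 0) and Ppp3ca (0.37 ± 0.06, adjusted p = 0.000725, 13 of 13), the 14-3-3 protein gene Ywhab (0.25 ± 0.07, adjusted p = 0.0163) and the kinase gene Rock1 (0.15 ± 0.04, adjusted p = 0.0244). The 2 that fell were the kinase genes Map4k4 (-0.21 ± 0.06, adjusted p = 0.03) and Akt1 (-0.19 ± 0.05, adjusted p = 0.00958). A Rock1 probe below the filter had a median ratio of -0.20 over 14 arrays, opposite in sign to the call. Another untested Rock1 probe had a median of 0.21 over 5 arrays. Untested probes of Ppp3cb and Map4k4 had medians of 0.39 and -0.45, with the sign of their calls. Calcineurin is the phosphatase whose regulatory subunit CHP1 resembles. Without the unnumbered cortex array 2 of the list passed, where 11.3% of all features did, and without the repeated array 3 did, where 16.9% of all features did.

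A list of 35 further acid-base transporters and lactate-handling genes had 8 with a probe and 5 tested. Ldha, the lactate dehydrogenase subunit that favours lactate formation, fell by 0.23 ± 0.06 (SE, n = 12, 11 of 12 replicates below 0, adjusted p = 0.0131). The other four did not pass: the MCT4 chaperone Bsg was at -0.17 (adjusted p = 0.167), Slc26a10 at 0.14 (adjusted p = 0.168), the MCT chaperone Emb at -0.06 (adjusted p = 0.529) and Ldhb at 0.03 (adjusted p = 0.79). The list median was -0.057. No gene of the list passed without the unnumbered cortex array or without cerebellum replicate 2.

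**Figure D4:**
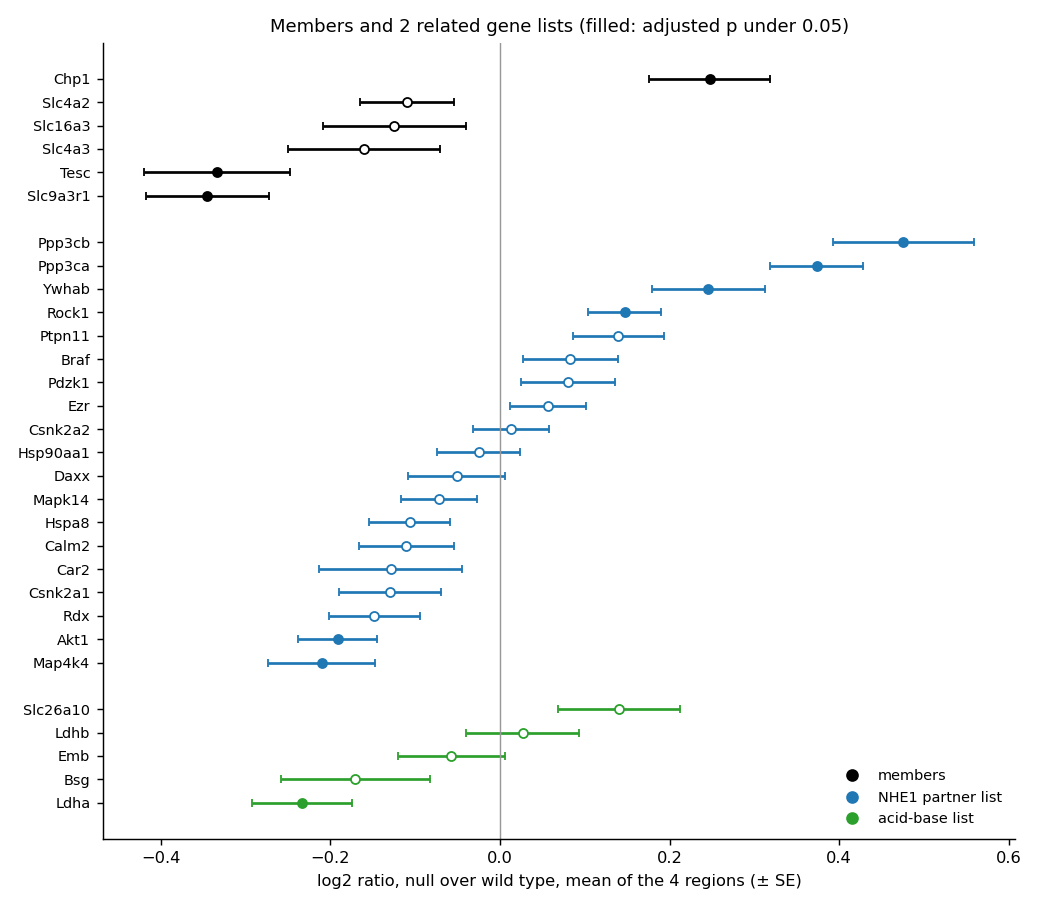
Log2 ratio of null over wild type in the mean of the 4 regions ± SE (horizontal axis) for the 6 genes, the NHE1 partner list and the acid-base list, one gene a line; filled points have an adjusted p under 0.05. Ppp3cb (0.48) is the highest of the tested genes shown, and Slc9a3r1 (-0.35) the lowest.

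Some markers of cell types that the tissue could hold passed in the mean too, where 12.9% of all features fell and 13.2% rose. The tested markers were 3 of 6 for vessels, 2 of 8 for neurons, 4 of 6 for meninges and 1 of 7 for erythrocytes. For astrocytes and microglia they were 3 of 8 each, and for myelin 1 of 7. All 3 tested vessel markers fell, with ratios of -0.44 for Pecam1, -0.53 for Cdh5 and -0.25 for Esam, as did 1 of 2 neuron markers (Tubb3, -0.66) and 1 of 4 meningeal markers (Igf2, -0.24). The erythrocyte gene Hbb-b1 (0.56) and 1 of 3 astrocyte markers (Slc1a3, 0.14) rose, while none of 3 microglial markers and not the 1 myelin marker, Mbp (-0.04), passed. Their part in the values of the 6 genes was not tested. Levels of RNA cannot be read from ratios, so the region labels were not checked against markers.

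The genes whose ratios ran most like each of the 6 over the replicates were sought among 3615 genes with a value in every replicate. For Slc9a3r1 (n = 13) they were AU021092, Azin2 and Vps39, with Pearson r of 0.954, 0.944 and 0.941. Vps39, a vesicle tethering subunit, was also the closest for Slc4a3 (r = 0.947, n = 13), followed by Timm17b (0.915) and Rfng (0.914). For Tesc (n = 12) they were Clk2, Ndufb5 and Zdhhc20 at 0.911, 0.906 and 0.879, and for Chp1 (n = 12) Kpna2, Spag9 and Cog6 at 0.884, 0.872 and 0.853. For Slc4a2 (n = 13) they were AU041129, Ubtf and Mrpl24 at 0.887, 0.882 and 0.858, and for Slc16a3 (n = 11) Ppp1cb, Tdrd5 and Enoph1 at 0.915, 0.858 and 0.831. None of the genes named for Slc9a3r1, Tesc and Chp1 passed in the mean of the regions. Their mean ratios ran from -0.089 (Cog6) to 0.079 (Azin2), so they did not share the fall or rise of those genes. Of the others, Rfng (-0.55) and Ppp1cb (-0.26) passed in the mean. The replicates share arrays, orientation and the wild-type pools, and the correlations describe likeness from replicate to replicate only.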

How the data were processed

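Per the file's values and the labels, the authors deposited log ratios of one channel over the other for 20 arrays and 15245 probes, already centred near 0. The deposited values were read as log2, an assumption, since base and channel order are not stated. How the scans were read and normalized is not stated. Swapped arrays were multiplied by -1 and every array was centred on its median. Gene names came from the platform annotation, with 9496 of 9604 single symbols matched to a current gene by Entrez ID. A probe entered with values on at least 3 arrays of a region and at least 1 of each orientation, in all 4 regions (9701 probes), and probes of a gene were averaged (8319 features, 5255 with a symbol). Arrays of a region with the same number were averaged.

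The model of a feature had 4 region terms and an orientation term. Because missing values make the orientation differ between features, it was fitted feature by feature, and limma 3.58.1 (squeezeVar) moderated the variances in R 4.3.3, with 6.04 prior and, for a complete feature, 8 residual degrees of freedom. P-values were adjusted by Benjamini-Hochberg over all features of a contrast, threshold 0.05. The procedure was tested on simulated data with independent noise in each replicate. That setting leaves out the likeness of same-numbered replicates and the repeated array, so it cannot show the error rate under them. Promoter windows came from RefSeq. Arrays give no count of reads, so their number limits the precision.

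The 6 genes, the lists and the alternatives were chosen with earlier results of these data known. All 6 genes are named with every probe, as are list genes that passed (or the smallest p, up to 4 a list), and the 3 closest genes of each. Alternatives changed the centring, scaling, averaging, orientation term, filter, moderation and replicates used. The replicate numbers were also fitted as a block.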

Additional observations from a re-analysis of the deposited data

Results flagged for a closer look

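For each probe and region, the untested Slc4a2 probe included, the highest and lowest arrays were compared with their neighbours where 4 or more arrays had a value. Of 24 groups, 1 held an array far from the others. The Chp1 ratio on the swapped array of cerebellum 2 was 0.482, while the nearest of the other 3 arrays of cerebellum, all of channel 1, was at -0.176. That gap was 0.83 of the range of the 4 arrays. The cutoff of the rule is set so that chance alone would set apart about 1 in 20 such groups, a rate not measured here.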

How the results depend on the processing

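In the mean of the 4 regions 3 of the 6 genes passed, where 26.1% of all features did. The count was 1 without the orientation term (26.5% of all features) and 1 on channel 1 arrays alone (34.8%). It was also 1 on features with a value in every replicate (29.3%), where Chp1 and Tesc were not tested. Without the channel 1 arrays of number 1 it was 5 (38.6%). On channel 1 arrays alone the Chp1 mean turned to -0.014. In cortex 1 gene passed; the count was 0 with arrays scaled to one spread, without the orientation term, without the filter, with a variance trend and robust moderation, with each region on its own, and on either orientation alone. It was 2 with every array on its own (9.27% of all features), 2 with the replicate block (8.27%), 4 without the channel 1 arrays of number 1 (18.7%) and 4 without any of number 1 (26.2%). The share of all features in cortex was 4.12% in the main fit, 0.445% with scaling and 0.024% with the trend. It was 2.67% without the orientation term, 2.68% without the filter, 1.55% on channel 1 arrays alone and 0.013% on swapped arrays alone. In hippocampus, 1 gene (Slc9a3r1) passed without any array of number 1, and in cerebellum 1 (Tesc) without the channel 1 arrays of number 1. Of the acid-base list 1 gene passed, Ldha, and 0 did on features with a value in every replicate, where Ldha was not tested. The list count was 2 without the filter, where 21.2% of all features passed. It was also 2 without number 1 in either way (38.6% and 33.8%) and on channel 1 arrays alone (34.8%). On swapped arrays alone it was 3 (27%). Of the NHE1 partner list 6 passed, where 26.1% of all features did. The count was 10 with every array on its own (37.2%) and 3 without the repeated array (16.9%). Leaving out 1 replicate at a time gave 1 to 3 genes in the mean, 0 to 4 in cortex and 0 to 1 in cerebellum. It gave 0 to 2 of the acid-base list and 2 to 7 of the partner list. Over these fits 11.3% to 31% of all features passed in the mean and 0.0721% to 20.3% in cortex. None of the 6 genes passed for a difference between regions in the 27 alternatives. Using one orientation alone and leaving out all of number 1 were chosen after seeing the data.

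The mean of its region was taken off each replicate, and these deviations were correlated. Replicates of different regions with the same number correlated at -0.03 to 0.60 (18 pairs, median 0.31), other pairs at a median of -0.14. Because the deviations of a region cancel out, higher values in some pairs press the others down, so these medians are not independent. Same-numbered replicates thus tended to deviate together, but not in every pair, and the labels name no shared animal. With the number as a replicate block, the block correlation was 0.24, 3 of the 6 genes passed in the mean, and over all features 1417 did, against 2172 without it. Features passing in the mean numbered 944 without the unnumbered cortex array. Array number, missing values and the unknown channel order limit what these ratios can show. Signal over background was not analysed here.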
